A study of Rattus norvegicus with 12 samples.

Results

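Integrins are the receptors with which fibroblasts hold the extracellular matrix. Each receptor is a pair of 1 alpha and 1 beta subunit that crosses the membrane. The alpha subunit largely sets which ligand is bound, and the beta tail recruits talin and kindlin, which link the pair to actin and to kinase signalling. In the synovium, the lining of the joint, integrins carry the attachment of fibroblasts to fibronectin, collagens and cartilage. The genes described are 10 integrin subunits of synovial fibroblasts, Itga1, Itga3, Itga4, Itga5, Itga11, Itgav, Itgb1, Itgb3, Itgb5 and Itgb8. They were taken by gene name, with the record of highest mean level where a name had several. Of the 10, 9 had a record among the 22442 records of the expression table, and 8 reached a mean of 1 FPKM and were tested with 11611 records in all. FPKM scales the fragments of a gene to its exon length and to all mapped fragments of the library, so genes can be set beside each other. No record carried the name Itga1, the alpha subunit of a collagen receptor, and it was not analysed here.

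The cells were fibroblast-like synoviocytes (FLS), the fibroblasts of the synovium, of the rat. They were grown out of synovial tissue of male SD rats with adjuvant arthritis (AA), a joint inflammation raised with complete Freund's adjuvant, and used at the third passage. The 4 groups of 3 libraries were FCA, AA rat FLS in DMEM medium alone, and AT10, AT1 and AT01, the same FLS with 10, 1 and 0.1 µM taurochenodeoxycholic acid (TCDCA), a taurine-conjugated bile acid, for 12 h. All groups therefore came from arthritic animals, and no cells of healthy joints were among the 12 libraries. How many animals lay behind a library was not given in the sources used here, so that the p-values measure the spread between these libraries, which may be technical.

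Library sums lay between 284210 and 309696 FPKM, and read depth could not be read from FPKM. The paper lists the reads of each library, with the most in AT01 replicate 3, and depth was not part of the fits. All 8 synovial fibroblast markers with a record, of 10 listed, had a mean of at least 10 FPKM, from Fap at 14.1 to Vim at 2658. Endothelial markers summed to at most 0.21 FPKM in any library, T cell markers to at most 0.07 with Cd3e at 0 throughout, and the 1 epithelial marker with a record, Epcam, to at most 0.03. Of 4 platelet markers Gp1bb had a mean of 7.39 FPKM, and the other 3 were under 0.1. Among macrophage markers Cd14 had a mean of 13.8 FPKM and Cd68 of 2.13, and Ptprc and Cd163 had no record. The means of Lyz2, Csf1r, Adgre1 and Aif1 were 0.232, 0.157, 0.0067 and 0.0033 FPKM. The summed level was 6.74 to 22.1 in FCA and 5.75 to 21.5 in the TCDCA libraries. Cd14 made up most of this sum and had 2 separate levels. It was low in FCA replicate 3, AT1 replicate 1 and AT01 replicate 1. The range of the sum thus mostly follows this 1 gene.

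The subunits fell into tiers that stood in every library. Itgb1, the beta subunit shared by most matrix-binding integrins, led with a mean of 301 FPKM over the 12 libraries and ranked 138 of all records. Itgb5, which pairs with Itgav alone, followed with a mean of 117 FPKM and rank 414. Then came the alpha subunits Itga5 with 34.3, Itgav with 33.5, Itga11 with 29.5 and Itga3 with 22.4 FPKM. Itgb3, the other main partner of Itgav, had a mean of 5.08 FPKM, and Itga4, the alpha subunit that binds Vcam1 and fibronectin, 1.77 FPKM. Itgb8, another partner of Itgav, was last with 0.775 FPKM and did not reach the filter. Itgb1 was above Itgb5, Itgb5 above each alpha subunit, Itga3 above Itgb3, Itgb3 above Itga4 and Itga4 above Itgb8 in 12 of 12 libraries. Within the alpha tier the ranges of neighbours overlapped: Itga5 was above Itgav in 7 of 12 libraries, Itgav above Itga11 in 8 and Itga11 above Itga3 in 10.

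**Figure D1:**
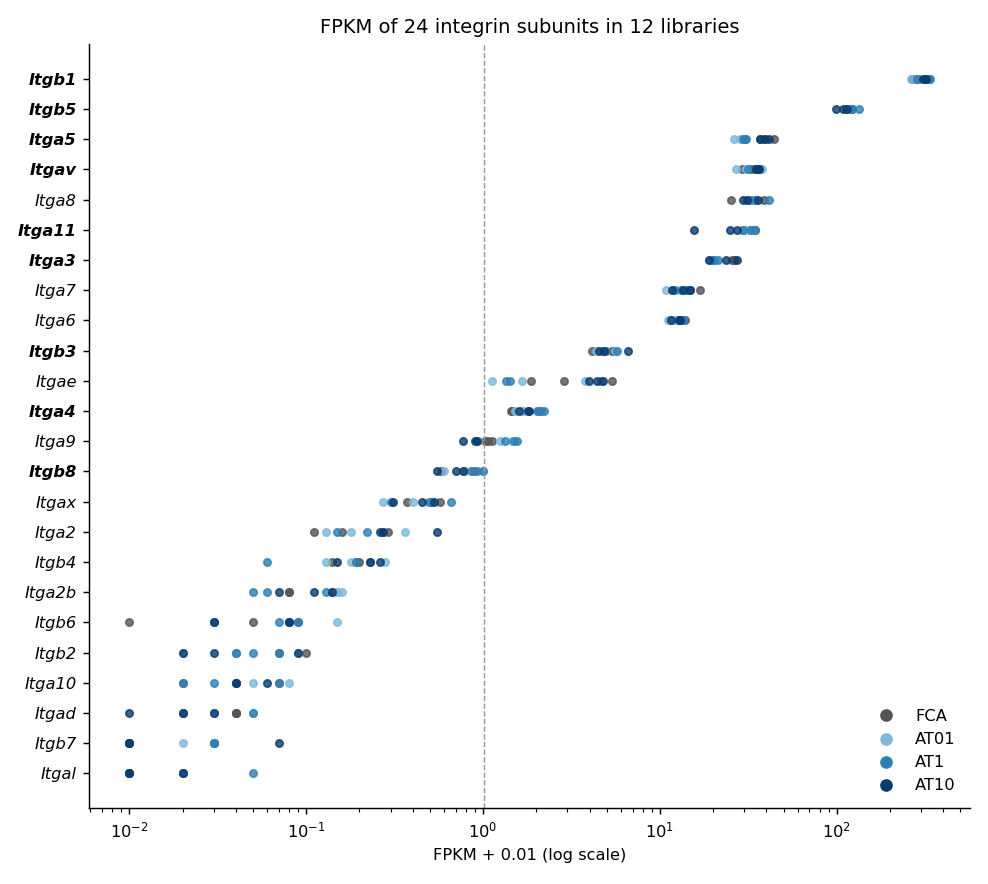
Levels of the 24 integrin subunits with a record, in FPKM + 0.01 on a log axis, with 1 dot per library, the named subunits in bold and a dashed line at 1 FPKM. Itgb1 stands alone at the top, Itgb5 follows, and 13 subunits have a mean of at least 1 FPKM.

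Of the other 16 integrin subunits of the rat, 15 had a record and 5 passed the filter. Itga8, a partner of Itgb1 that binds nephronectin and fibronectin, lay at 25.11 to 41.20 FPKM, which puts it among the alpha tier. Itga7 and Itga6, laminin-binding alpha subunits, lay at 10.82 to 16.87 and 11.06 to 13.84 FPKM. Itgae, a lymphocyte subunit, lay at 1.12 to 5.38 and Itga9 at 0.76 to 1.54 FPKM. Itgb2, the beta subunit of leukocyte integrins, had a mean of 0.045 FPKM, and Itga2b, the platelet subunit, of 0.1.

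The balance between subunits followed these tiers. Itgb1 made up 51.5 to 59.8% of the summed FPKM of the 9 named subunits with a record, and Itgb5 18.5 to 24.3%. Itgb5 was 15.0 to 28.9 times the level of Itgb3 in the same library. Itgb1 was 1.40 to 1.90 times the sum of the 5 named alpha subunits with a record and Itga6, Itga7, Itga8 and Itga9. Itga3, Itga5 and Itga11 are known to pair with Itgb1 alone. These are RNA levels and do not give the number of pairs at the cell surface.

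Across the conditions no named subunit passed the test. Of 64 tests, 8 subunits in 8 comparisons, 0 had an adjusted p under 0.05 (limma on log2(FPKM + 1), Benjamini-Hochberg over all 11611 records), 13 had an unadjusted p under 0.05, and the smallest adjusted p was 0.250. The unmoderated F test run as an alternative also called 0. No difference exceeded 1 on the log2(FPKM + 1) scale, a scale that understates the change of low genes, and the largest was 0.53 in size. For 2 groups of 3 an exact permutation test (two-sided) reaches at least p = 0.1, the value of each pair of groups without overlap. The 3 comparisons of a dose with FCA share the FCA libraries.

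**Figure D2:**
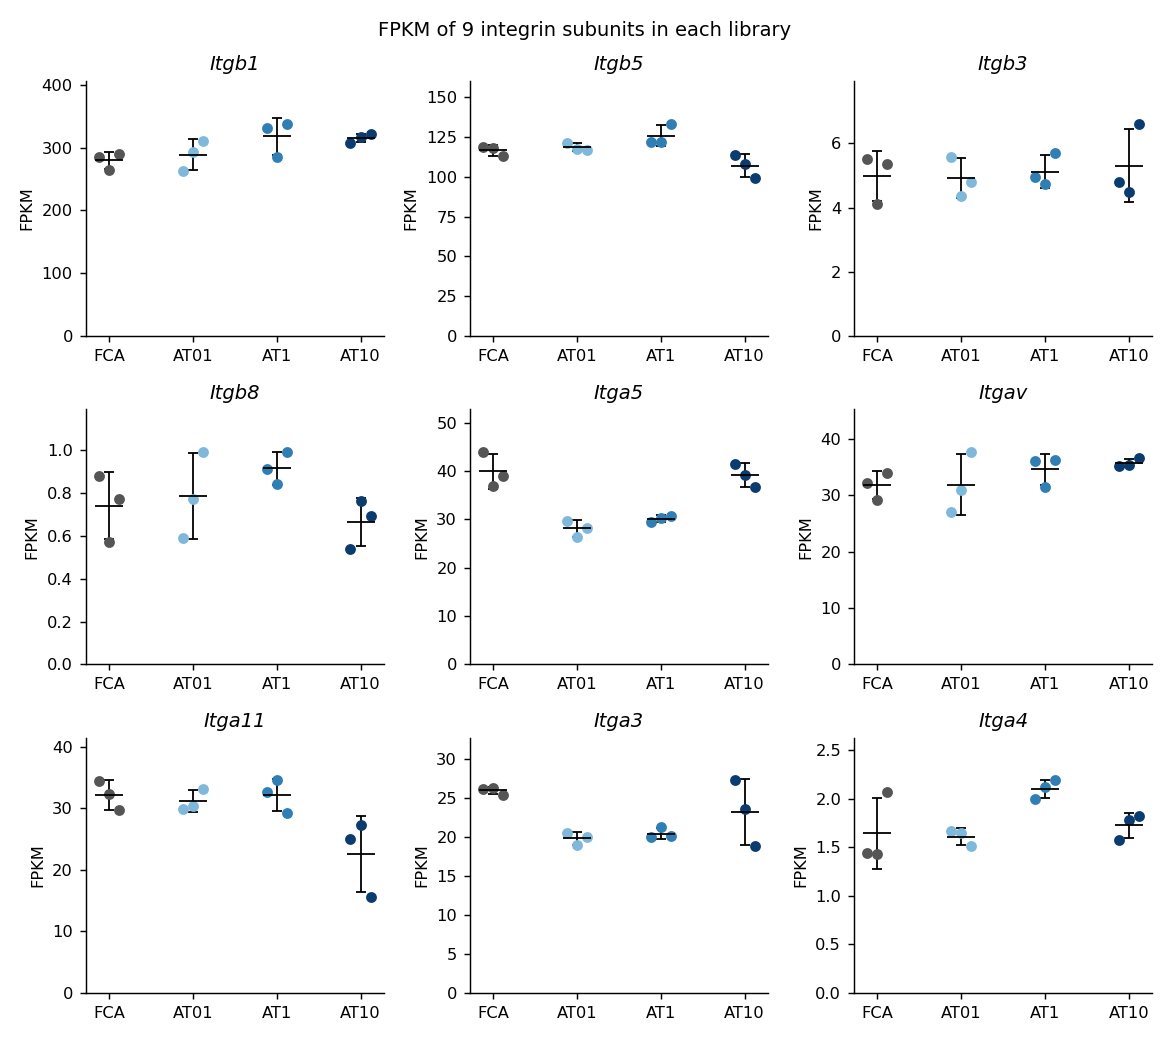
FPKM of the 9 named subunits with a record in FCA, AT01, AT1 and AT10, each panel with its own axis from 0, with 1 dot per library and bars for the mean ± SD of 3 libraries. Itga5 and Itga3 are lower than FCA in AT01 and AT1, Itga11 is lower in AT10, and the other panels overlap in most groups.

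Itga5, the alpha subunit of the classical fibronectin receptor, was lower at the 2 lower doses and close to FCA at the highest. It had 43.92, 36.92 and 39.02 FPKM in FCA, 29.69, 26.37 and 28.26 in AT01, 29.38, 30.29 and 30.70 in AT1, and 41.52, 39.23 and 36.74 in AT10. Every AT01 and AT1 library was below every FCA and every AT10 library, and AT10 and FCA overlapped. The means were 40.0 ± 3.59 in FCA, 28.1 ± 1.67 in AT01, 30.1 ± 0.676 in AT1 and 39.2 ± 2.39 in AT10 (SD, n = 3 each).

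The difference in Itga5 from FCA was -0.49 ± 0.09 in log2 (SE; 95% interval -0.72 to -0.26; unadjusted p = 0.00200, adjusted p = 0.371, limma) in AT01 and -0.39 ± 0.08 (-0.58 to -0.20; unadjusted p = 0.00273, adjusted p = 0.349, limma) in AT1. In AT10 it was -0.03 ± 0.09, with an interval of -0.24 to 0.19 (limma adjusted p = 0.917). Neither of the first pair passed after adjustment, yet both intervals lay below 0. Set against the other doses themselves, Itga5 was 0.37 ± 0.07 higher in AT10 than in AT1 (unadjusted p = 0.00163, adjusted p = 0.30, limma) and 0.46 ± 0.08 higher than in AT01 (unadjusted p = 0.00157, adjusted p = 0.505, limma). AT1 and AT01 overlapped and differed by 0.10 ± 0.07. The slope of Itga5 over the order of doses was 0.00 per step, and its levels were not ordered by dose.

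Itga3, the alpha subunit of a laminin receptor, showed a like picture in the lower doses and a wide spread in AT10. FCA held 26.17, 26.33 and 25.44 FPKM, AT01 20.50, 18.94 and 20.04, AT1 20.03, 21.24 and 20.07, and AT10 27.26, 23.58 and 18.86. Each AT01 and AT1 library was below each FCA library, while AT10 ran from above all FCA libraries to below every AT01 and AT1 library. Against FCA the difference was -0.37 ± 0.07 (unadjusted p = 0.0014, adjusted p = 0.326, limma) in AT01 and -0.33 ± 0.05 (unadjusted p = 0.00103, adjusted p = 0.250, limma) in AT1. In AT10 it was -0.17 ± 0.13 (limma adjusted p = 0.630), and it was -0.03 without AT10 replicate 3 and -0.29 without AT10 replicate 1. Over the 9 TCDCA libraries, 8 were below every FCA library and 1 above them all, with a difference of -0.29 ± 0.10 (limma unadjusted p = 0.0105, adjusted p = 0.321; two-sided exact permutation p = 0.0182). For Itga5 the same difference was -0.30 ± 0.13 with 7 of 9 libraries below (limma unadjusted p = 0.0387, adjusted p = 0.389; two-sided exact permutation p = 0.0773).

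The promoter sequences of Itga3 and Itga5, the pair that was lower at both lower doses, are given from RefSeq on the build GRCr8, with the 250 bases before the annotated start read 5′ to 3′ on the gene's strand. Capitals mark the GC box GGGCGG, on either strand, and CCAAT, on either strand. The Itga3 stretch is chr10:80518902-80519151 on the minus strand, with 64.0% G and C. The Itga5 stretch is chr7:136381306-136381555 on the minus strand, with 55.6% G and C.
Itga3: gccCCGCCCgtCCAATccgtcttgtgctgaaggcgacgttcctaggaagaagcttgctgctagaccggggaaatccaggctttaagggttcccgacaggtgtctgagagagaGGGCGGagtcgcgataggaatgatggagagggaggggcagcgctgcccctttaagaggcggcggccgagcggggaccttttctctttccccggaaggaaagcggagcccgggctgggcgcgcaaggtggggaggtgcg
Itga5: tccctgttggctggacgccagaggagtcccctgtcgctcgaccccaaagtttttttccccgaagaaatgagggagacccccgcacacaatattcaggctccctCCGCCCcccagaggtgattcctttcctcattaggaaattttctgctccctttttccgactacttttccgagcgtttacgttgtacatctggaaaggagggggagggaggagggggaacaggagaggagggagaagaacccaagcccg

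A promoter was found for 8 of the 9 subunits with a record, all but Itgb3. The GC box, on either strand, was in 6 of the 8, those of Itga3, Itga5, Itga11, Itgav, Itgb1 and Itgb8, beside 30.5% of 33469 promoters of this length. CCAAT was in 2 of 8, those of Itga3 and Itgb8, beside 34.0%, and the TEAD motif GGAATG in 3 of 8, those of Itga3, Itgb1 and Itgb8, beside 12.1%. The TATA motif TATAAA was in 0 of 8, beside 12.9% of promoters. The same held for the AP-1 motif TGANTCA, beside 6.34%. The E-box CACGTG was also in 0 of 8, beside 5.59%. Each motif was searched on both strands and counted whether or not it overlapped another. The stretches held 55.6 to 74.4% G and C, beside a median of 51.2% over all promoters. Both Itga3 and Itga5 hold the GC box, as do 4 others.

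Against the background of all tested records, these counts stood as follows. In AT01, 2 of 8 subunits, Itga3 and Itga5, were lower at an unadjusted p under 0.05, against 6.6% of all records in either direction and 4.03% lower. In AT1 it was again this pair, 2 of 8, against 11% in either direction and 5.44% lower. In the 9 TCDCA libraries together it was the same pair, 2 of 8, against 12% in either direction and 6.15% lower. The records called at an adjusted p under 0.05 were 0.0947% in AT01, 0.0947% in AT1 and 0.0258% in TCDCA as a whole. Groups without overlap with FCA were counted for 2 of 8 subunits in AT01, where 14% of all records did the same and 8.06% with the lower level in AT01, and for 3 of 8 in AT1, Itga3 and Itga5 lower and Itgb5 higher, where 19.9% did. No subunit separated all 9 TCDCA from the 3 FCA libraries, as 2.86% of records did. The median difference of the 8 subunits was -0.01 in AT01 and 0.07 in AT1, beside 0.00 and 0.02 over all records.

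**Figure D3:**
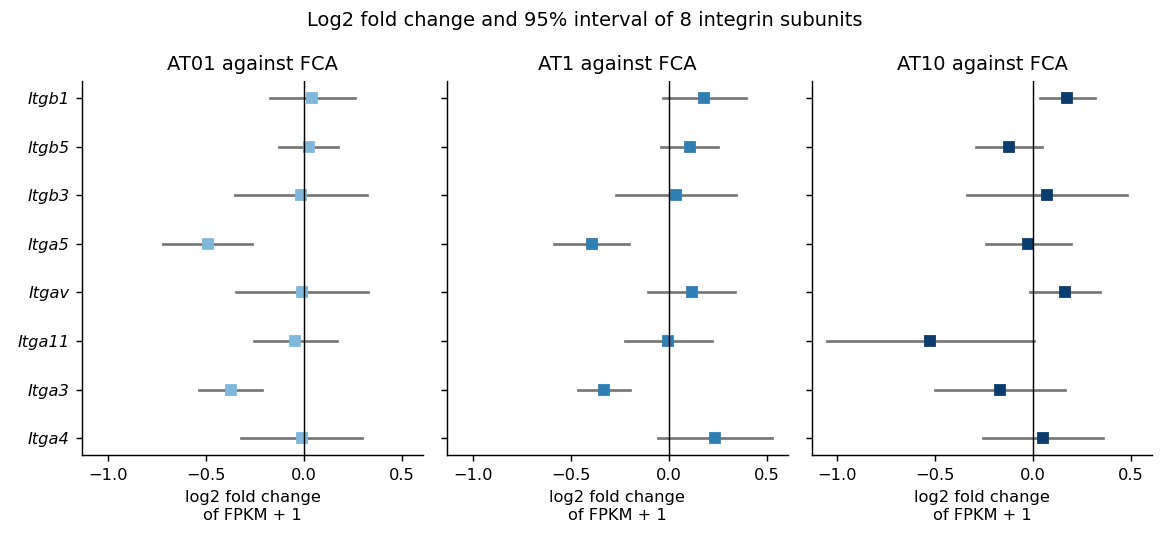
Difference of each dose from FCA in log2(FPKM + 1) for the 8 tested subunits, points with 95% intervals from limma, n = 3 libraries per group. The intervals of Itga3 and Itga5 lie below 0 in AT01 and AT1, and that of Itgb1 lies above 0 in AT10.

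Of 6 smooth muscle markers, Acta2 and Smtn were lower in the same libraries, and none passed after adjustment. The 6 genes summed to 347 to 451 FPKM in FCA, 255 to 322 in AT01, 286 to 325 in AT1 and 183 to 344 in AT10. Acta2, the actin of smooth muscle and myofibroblasts, and Smtn were below every FCA library in 9 of 9 TCDCA libraries, by -0.54 ± 0.19 (limma unadjusted p = 0.0171, adjusted p = 0.347) and -0.32 ± 0.11 (limma unadjusted p = 0.0135, adjusted p = 0.339). The other 4 markers, Myh11, Cnn1, Des and Lmod1, overlapped FCA at every dose and differed from it by -0.24 to 0.20, and Acta2, with a mean of 245 FPKM, made up most of the sum. Median differences from FCA over the 6 markers were -0.02 in AT01, 0.03 in AT1 and -0.18 in AT10. Among the 8 synovial fibroblast markers, Thy1 was below and Fap above every FCA library in 9 of 9 TCDCA libraries, by -0.22 ± 0.08 (limma unadjusted p = 0.0209, adjusted p = 0.356) and 0.30 ± 0.08 (limma unadjusted p = 0.00307, adjusted p = 0.295), and the other 6 overlapped FCA over the 9. Of all records, 2.86% separated the 9 TCDCA libraries from FCA, in either direction. In bulk RNA fewer cells of a type and less RNA per cell cannot be told apart. The part of these markers in the Itga3 and Itga5 values was not tested. The lowest marker sum, 183 FPKM, belonged to AT10 replicate 3, where Itga5 was at 36.74 FPKM, above every AT01 and AT1 library, and Itga3 at 18.86 FPKM, below them all.

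Since Itga5 and Itgav both belong to fibronectin-binding integrins, their ratio in each library is given as a description, chosen after the values were seen. Itga8, with a mean of 33.4 FPKM, and Itga4 also bind fibronectin and are not part of this ratio. Itga5 to Itgav was 1.36, 1.27 and 1.15 in FCA, 1.18, 1.11 and 1.01 in AT10, 0.815, 0.965 and 0.847 in AT1, and 1.10, 0.855 and 0.751 in AT01. Itga5 was the higher of the pair in all FCA and AT10 libraries and the lower in all AT1 libraries and 2 of 3 AT01 libraries. Itga5 to Itgb1, the partner of Itga5, was 0.143 ± 0.00990 in FCA, 0.124 ± 0.0102 in AT10, 0.0952 ± 0.00980 in AT1 and 0.0980 ± 0.0131 in AT01 (SD, n = 3 each).

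**Figure D4:**
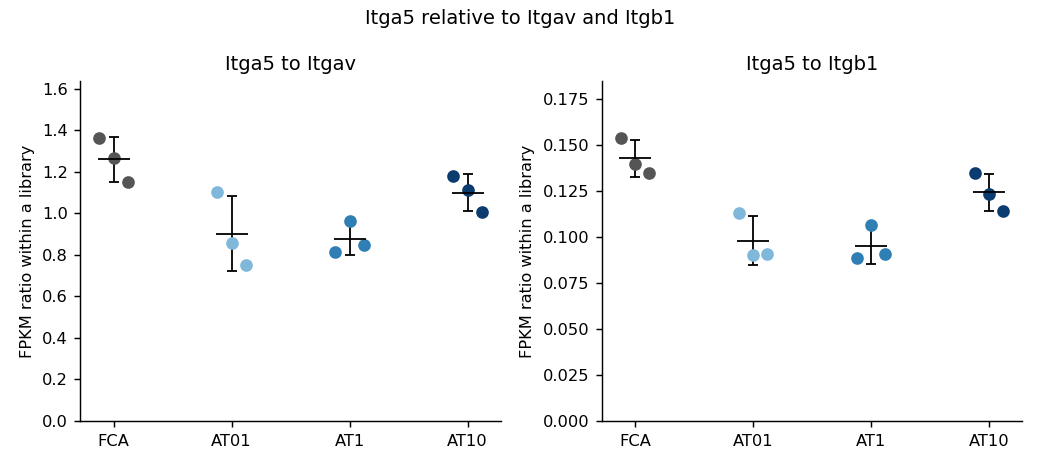
Ratio of Itga5 to Itgav and of Itga5 to Itgb1 in FPKM, with 1 dot per library and the mean ± SD of 3 libraries per group. All AT1 and AT01 ratios lie below all FCA ratios in both panels. AT10 overlaps FCA for Itga5 to Itgav. For Itga5 to Itgb1 it lies below FCA, by 0.1347 against 0.1348 at the nearest.

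Itga11, the alpha subunit of a receptor for fibrillar collagen that marks fibroblasts, had its low values at the highest dose. It was at 34.52, 32.35 and 29.68 FPKM in FCA, 29.94, 30.37 and 33.19 in AT01, 32.58, 34.53 and 29.32 in AT1, and 25.06, 27.21 and 15.57 in AT10. All 3 AT10 libraries were below the other 9, with replicate 3 farthest. The difference of AT10 from FCA was -0.53 ± 0.21 (95% interval -1.05 to 0.00; unadjusted p = 0.0504, adjusted p = 0.422, limma), and without AT10 replicate 3 it was -0.29. That library also had the lowest Acta2, 125 FPKM. Over the order of doses the slope was -0.15 ± 0.06 per step (limma unadjusted p = 0.0283, adjusted p = 0.405), and -0.07 without that library.

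Itgb1 and Itgav, the most abundant beta subunit and the alpha subunit of the vitronectin receptors, were both higher in AT10 than in FCA without overlap. Itgb1 held 285.37, 264.77 and 289.36 FPKM in FCA and 308.27, 317.54 and 321.57 in AT10. In AT1 it held 331.89, 284.71 and 338.53 FPKM, and in AT01 262.56, 292.62 and 311.35, both of which overlapped FCA. The differences of Itgb1 from FCA were 0.17 ± 0.06 in AT10 (95% interval 0.03 to 0.32; unadjusted p = 0.0237, adjusted p = 0.348, limma), 0.18 ± 0.09 in AT1 and 0.04 ± 0.09 in AT01. Its slope over the order of doses was 0.07 ± 0.03 per step (limma unadjusted p = 0.0248, adjusted p = 0.404).

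Itgav held 32.20, 29.17 and 33.97 FPKM in FCA, 26.96, 30.85 and 37.63 in AT01, 36.04, 31.40 and 36.24 in AT1, and 35.15, 35.33 and 36.48 in AT10. AT01 spanned nearly the whole range of this subunit, while the AT10 libraries were close together. In AT10 the difference from FCA was 0.16 ± 0.07 (unadjusted p = 0.0666, adjusted p = 0.443, limma). Over the 12 libraries the level of Itgav was 0.103 to 0.121 times that of Itgb1.

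In AT10 against FCA, 1 of 8 subunits, Itgb1, had an unadjusted p under 0.05, beside 11.9% of all records and 7.54% in the higher direction, and 0.172% of records passed after adjustment. Groups did not overlap for 3 of 8, Itgb1 and Itgav higher and Itga11 lower, beside 19.9% of records. The median difference of the 8 subunits was 0.01 beside -0.01 over all records. Over the order of doses 2 of 8, Itgb1 and Itga11, had an unadjusted p under 0.05, beside 11.2% of records, and 0% of records passed after adjustment.

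The partners of Itgav differed among themselves. Itgb5 held 119.00, 118.40 and 112.98 FPKM in FCA, 121.47, 117.88 and 116.79 in AT01, 122.24, 122.28 and 133.59 in AT1, and 114.11, 107.90 and 99.46 in AT10. All AT1 libraries were above all other libraries, and the AT10 libraries overlapped FCA only through replicate 1. Its difference was -0.23 ± 0.07 between AT10 and AT1 (unadjusted p = 0.0223, adjusted p = 0.748, limma), 0.11 ± 0.06 between AT1 and FCA (limma adjusted p = 0.508) and -0.12 ± 0.07 between AT10 and FCA (limma adjusted p = 0.516). Without AT1 replicate 3 the difference between AT1 and FCA was 0.07, and without AT10 replicate 3 that between AT10 and FCA was -0.07. Itgb3 held 4.10 to 5.51 FPKM in FCA, 4.36 to 5.58 in AT01, 4.73 to 5.69 in AT1 and 4.50 to 6.62 in AT10, with every pair of groups overlapping and differences from FCA of -0.01, 0.04 and 0.07 in AT01, AT1 and AT10. Itgb8 lay between 0.54 and 0.99 FPKM in all groups, a level at which 2 decimals are kept in the table, and its AT1 and AT10 groups did not overlap.

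Itga4 was low throughout, with 1.44, 1.43 and 2.07 FPKM in FCA, 1.67, 1.65 and 1.51 in AT01, 2.00, 2.12 and 2.19 in AT1, and 1.58, 1.78 and 1.82 in AT10. AT1 was above AT01 and AT10 without overlap and overlapped FCA through FCA replicate 3. The difference of AT1 from AT01 was 0.25 ± 0.08 (unadjusted p = 0.0220, adjusted p = 1.00, limma). A further record of the name Itga4 lay at 0.50 to 1.34 FPKM, and reads of a gene split over such records cannot be joined again from this table.

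Between the doses, AT10 and AT1 did not overlap for 4 of 8 subunits, Itga5 higher in AT10 and Itga4, Itga11 and Itgb5 lower, beside 13.9% of records, and 2 of 8 had an unadjusted p under 0.05 beside 6.46%. AT10 and AT01 did not overlap for 3 of 8, Itga5 higher and Itga11 and Itgb5 lower, beside 11.1%, and 1 of 8, Itga5, had an unadjusted p under 0.05 beside 4.97% and 2.14% higher. For AT1 and AT01 the count was 2 of 8, Itga4 and Itgb5, both higher in AT1, beside 8.6% of records and 4.86% in that direction, and 1 of 8, Itga4, had an unadjusted p under 0.05 beside 3.43% and 1.72% higher. Records that passed after adjustment made up 0.258, 0.0689 and 0.129% in these 3 comparisons.

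Records with the most similar profile over the 12 libraries were named for each subunit by the root mean square difference of standardised values, as a description. The nearest were Prr12 to Itga3 at 0.272, Dysf to Itga5 at 0.353, Myo1e to Itga11 at 0.254, Cers6 to Itgav at 0.229, Htatsf1 to Itgb1 at 0.302, Usp45 to Itga4 at 0.377, Mfn1 to Itgb3 at 0.409 and Ephx1 to Itgb5 at 0.362. None of them is another integrin subunit. With 13 integrin subunits among the 11611 records tested, this says little on whether subunits varied together. No named subunit had 2 separate levels among the 12 libraries, a pattern seen in 4.52% of tested records.

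RNA levels of intracellular adhesion partners, which bind integrin tails or act with proteins that do, were examined beside the subunits. Of 32 listed, 30 were tested. The summed level of the list was 1609 to 1628 FPKM in FCA and 1373 to 1574 in the TCDCA libraries. Abundant genes such as Flna and Zyx weigh most in this sum. Taken singly, 1 of the 30 was below and 1 above every FCA library in all 9 TCDCA libraries, beside 2.86% of records in either direction. None passed after adjustment against FCA (limma). At an unadjusted p under 0.05, 4 were higher and 2 lower in AT10, 2 higher and 5 lower in AT1, and 0 higher and 7 lower in AT01, with medians of -0.10, -0.06 and -0.12 beside -0.01, 0.02 and 0.00 over all records. Of all records, 7.54% were higher and 4.34% lower in AT10, 5.56 and 5.44% in AT1, and 2.57 and 4.03% in AT01.

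**Figure D5:**
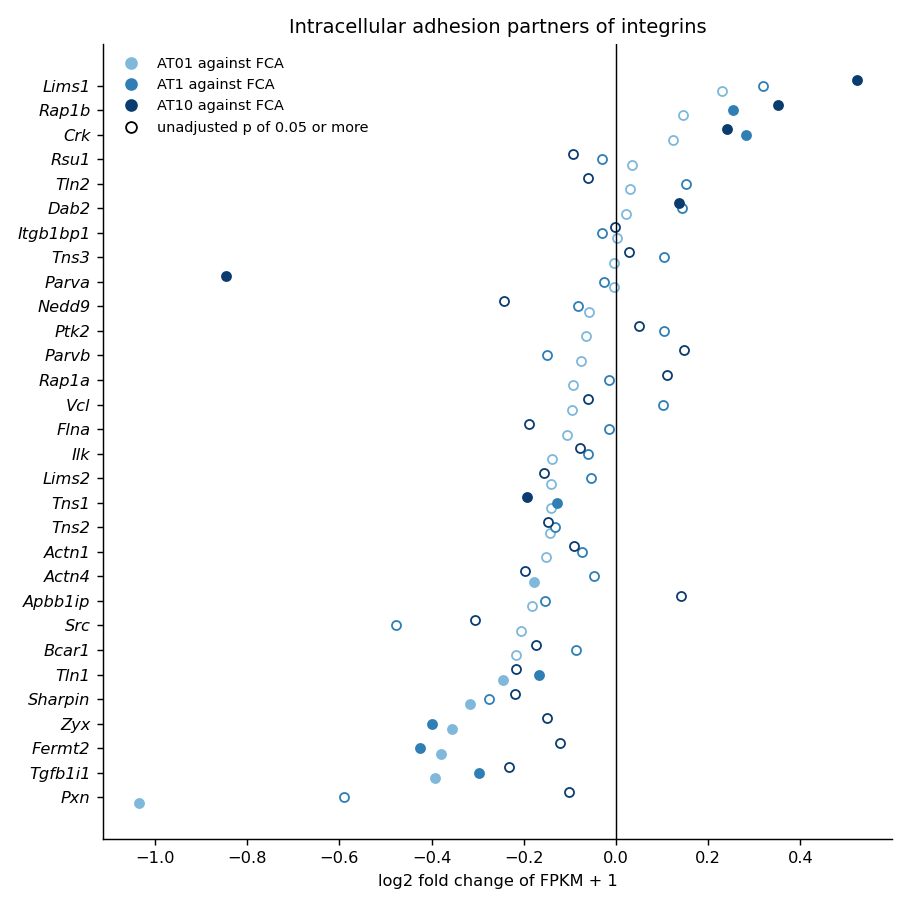
Difference from FCA in log2(FPKM + 1) of the 30 tested intracellular integrin partners at each dose, with filled points for an unadjusted p under 0.05 (limma). In AT01 the 7 filled points lie below 0, and in AT10 4 of 6 lie above it.

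Zyx, the focal adhesion protein zyxin, followed the order seen for Itga5 in part. It held 189, 199 and 182 FPKM in FCA, 160, 137 and 149 in AT01, 142, 146 and 143 in AT1, and 195, 168 and 153 in AT10, so that the lower doses were below FCA without overlap and AT10 overlapped it. The differences from FCA were -0.40 ± 0.05 in AT1 (unadjusted p = 0.000383, adjusted p = 0.149, limma), -0.36 ± 0.08 in AT01 (limma adjusted p = 0.557) and -0.15 ± 0.10 in AT10. Fermt2, a kindlin that binds the beta tail, held 72.5, 71.0 and 80.2 FPKM in FCA, 57.9, 57.8 and 55.4 in AT01, 50.3, 55.3 and 60.3 in AT1, and 75.1, 55.8 and 76.4 in AT10. Its differences were -0.43 ± 0.09 in AT1 (limma adjusted p = 0.362), -0.38 ± 0.07 in AT01 (limma adjusted p = 0.378) and -0.12 ± 0.14 in AT10. Flna, filamin A, which crosslinks actin, had the highest mean of the list, 297 FPKM, and differed from FCA by -0.19 to -0.01.

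Rap1b and Lims1 were above every FCA library in AT10 and in AT1, and neither passed after adjustment. Rap1b, a small GTPase that activates integrins, was 46.2 to 48.1 FPKM in FCA and 56.1 to 63.2 in AT10, a difference of 0.35 ± 0.07 (unadjusted p = 0.00224, adjusted p = 0.160, limma), and 49.9 to 61.6 in AT1, a difference of 0.25 ± 0.09. Lims1, the adaptor PINCH that joins integrin-linked kinase, was 19.2 to 25.8 FPKM in FCA and 29.7 to 34.4 in AT10, a difference of 0.52 ± 0.13 (unadjusted p = 0.00666, adjusted p = 0.225, limma), and 26.7 to 31.7 in AT1, a difference of 0.32 ± 0.13.

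The ligands of these receptors ranged from some of the most abundant records to some near 0. Of 28 listed, 27 had a record, 22 were tested and 19 had a mean of at least 10 FPKM, and none passed after adjustment against FCA (limma). At an unadjusted p under 0.05, 1 was higher and 3 lower in AT10, 2 higher and 5 lower in AT1, and 1 higher and 7 lower in AT01, with medians of -0.17, -0.04 and -0.18. Over all records 7.54% were higher and 4.34% lower in AT10, 5.56 and 5.44% in AT1, and 2.57 and 4.03% in AT01, with medians of -0.01, 0.02 and 0.00. Thbs1, thrombospondin, had a mean of 1770 FPKM and Spp1, osteopontin, of 1436. Fn1, fibronectin, the ligand of Itga5, lay at 1462 to 1532 FPKM in FCA and 1154 to 1329 in AT10 without overlap, a difference of -0.27 ± 0.07 (unadjusted p = 0.00833, adjusted p = 0.242, limma). At the doses where Itga5 was lower, Fn1 lay at 1184 to 1453 FPKM in AT01, below every FCA library (-0.17 ± 0.10, limma adjusted p = 0.774), and at 1394 to 1502 FPKM in AT1, where it overlapped FCA (-0.05 ± 0.05).

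Vcam1, the cell-bound ligand of Itga4 with Itgb1, was 3.64, 2.55 and 3.07 FPKM in FCA and 4.01 to 5.70 in the TCDCA libraries, of which 9 of 9 were above every FCA library. Its difference over the 9 was 0.49 ± 0.09 (unadjusted p = 0.000208, adjusted p = 0.201, limma). Col6a1, a chain of collagen VI, and Mfge8, a ligand of Itgav with Itgb3 or Itgb5, were on the other side, with 9 of 9 below, by -0.30 ± 0.08 (unadjusted p = 0.00206, adjusted p = 0.268, limma) and -0.19 ± 0.06 (unadjusted p = 0.00938, adjusted p = 0.314, limma). Of the 22 tested ligands, 1 was above and 2 below FCA in this way, beside 2.86% of all records in either direction. Col5a1, a chain of collagen V, differed by -0.43 ± 0.09 in AT01 (limma adjusted p = 0.432), and Tgfb2, a growth factor secreted in latent form, by -0.41 ± 0.09 in AT10 (limma adjusted p = 0.187). Cyr61, a matricellular ligand of Itgav and Itga6 integrins, was the 1 ligand that passed between doses: it held 391, 421 and 375 FPKM in AT1 and 193, 218 and 213 in AT01, higher by 0.93 ± 0.08 (limma adjusted p = 0.0389). Its FCA libraries spanned 255 to 465 FPKM and overlapped AT1. It lies outside the naming rule and was named after its values were seen.

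Among 12 membrane partners, all tested, 0 were higher or lower at an unadjusted p under 0.05 in AT10, 1 was higher in AT1, and 1 was higher and 1 lower in AT01, with medians of 0.13, 0.01 and -0.02. At that threshold lay 11.9, 11 and 6.6% of all records in these comparisons. Cd63, a tetraspanin, was the most abundant with a mean of 604 FPKM, and Cd9, another tetraspanin, had 264. Bsg, basigin, was 218 to 252 FPKM in FCA and 305 to 364 in AT01, by 0.53 ± 0.10 (unadjusted p = 0.00209, adjusted p = 0.371, limma). Cd47, which associates with Itgav and Itgb3, differed by 0.26 ± 0.08 in AT1 (limma adjusted p = 0.420), and Sdc4, a syndecan that acts with Itga5 on fibronectin, by -0.16 ± 0.07 in AT01 (limma adjusted p = 0.720). Among the other alpha subunits, Itga7 differed by -0.32 ± 0.11 in AT01 (limma adjusted p = 0.720) and Itga6 and Itga8 overlapped FCA at every dose. Itga9 was 1.01 to 1.12 FPKM in FCA, 1.32 to 1.54 in AT1 and 0.76 to 0.91 in AT10, above and below FCA without overlap, by 0.25 ± 0.08 (limma adjusted p = 0.428) and -0.16 ± 0.09 (limma adjusted p = 0.529).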

How the data were processed

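Poly(A) RNA of the 12 libraries was sequenced in pairs after dUTP marking of the second strand. The authors trimmed reads with cutadapt, aligned them with HISAT2 2.0.4, assembled them with StringTie 1.2.4 and estimated levels with Ballgown 2.6.0, and deposited FPKM per gene record to 2 decimals. The genome build is not given in the sources used here. FPKM keeps no read counts, and records of 1 name can share reads. Groups follow the sample labels, all 12 columns were used, and none was left out. The members and lists were chosen with earlier results of these data known. A filter kept 11611 records whose mean reached 1 FPKM, and their log2(FPKM + 1) was fitted with limma 3.58.1 in R 4.3.3 (trend). Fits took 2 groups at a time, or all 12 libraries for TCDCA and for the order of doses. The order of doses was coded 0, 1, 2 and 3. Benjamini-Hochberg adjustment ran over all records, with no scaling between libraries. Two-sided exact permutation tests went through every split of the libraries compared, with NumPy 2.4.6. The fit was tested on simulated data. Named with values were every subunit and each other integrin subunit of at least 1 FPKM, and per partner list the 2 of highest mean and the 2 of smallest p for each dose. Alternatives were a pseudocount of 0.1, no filter or a mean of at least 10 FPKM, 1 fit over all groups, unmoderated F tests, median-of-ratios scaling, sums by gene name, the replicate number as a block, and leaving out each library.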

Additional observations from a re-analysis of the deposited data

Results flagged for a closer look

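Itga11 in AT10 replicate 3 stood apart from the other TCDCA libraries: it was at 15.57 FPKM where the other 8 lay between 25.06 and 34.53. The gap to its nearest neighbour was 0.50 of the whole range, against a critical value of 0.493 for 9 values. Among 9 such groups examined, 1 group for each subunit with a record, this was the 1 past its critical value. Chance gives about 1 in 20 for each group, so at least 1 among 9 groups is more likely than that.

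Itgb5 lay on opposite sides of the FCA mean at the 2 higher doses, by -9.64 FPKM in AT10 and by 9.24 FPKM in AT1, with every library of each group on its side. The test of AT10 against AT1 gave -0.23 in log2 with an unadjusted p of 0.0223 and an adjusted p of 0.748 (limma).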

How the results depend on the processing

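The count of named subunits at an adjusted p under 0.05 was 0 in every comparison under every alternative run. The lowest adjusted p of any subunit under any of them (limma or the F test) was 0.129 for AT01, 0.121 for AT1 and 0.305 for AT10 against FCA. Of 480 values under alternatives that keep all libraries, 4 changed direction: Itga4 in AT01 against FCA was 0.079 with sums by gene name, and with median-of-ratios scaling Itgb1 in AT10 against AT1 was 0.0096, Itgb5 in TCDCA against FCA -0.0071 and the slope of Itga5 over the order of doses -0.00052. Leaving out 1 library reversed 48 of 480 values, of which the largest was 0.11 in size.

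With 1 library left out in turn, the values that reversed had these ranges in log2. In AT10 against FCA they were, as lowest to highest, Itga4 -0.0065 to 0.16, Itga5 -0.080 to 0.042 and Itgb3 -0.076 to 0.16. For AT1 against FCA they were Itga11 -0.058 to 0.060 and Itgb3 -0.074 to 0.10. For AT01 against FCA they were Itga4 -0.069 to 0.10, Itga11 -0.099 to 0.0067, Itgav -0.13 to 0.10, Itgb1 -0.013 to 0.11, Itgb3 -0.13 to 0.054 and Itgb5 -3.5e-05 to 0.037. For AT10 against AT1 they were Itgav -0.019 to 0.081, Itgb1 -0.086 to 0.039 and Itgb3 -0.11 to 0.12. For AT10 against AT01 they were Itgb3 -0.061 to 0.17. For AT1 against AT01 they were Itga11 -0.010 to 0.10 and Itgb3 -0.016 to 0.13. For TCDCA against FCA they were Itgb3 -0.081 to 0.095 and Itgb5 -0.022 to 0.031. For the order of doses they were Itga5 -0.035 to 0.050 and Itgb3 -0.013 to 0.049. Itga5 kept -0.54 to -0.42 in AT01 and -0.45 to -0.32 in AT1 against FCA, and Itga3 -0.40 to -0.34 and -0.36 to -0.32.

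Replicate numbers did not pair the libraries: over 18 same-numbered pairs the correlation of deviations from the group mean was -0.105 to 0.0942. In every other group at once, 1 of 12 libraries correlated best with its own number. With the replicate number as a block 0 subunits passed after adjustment in any comparison, Itga5 had an adjusted p of 0.805 in AT01 and 0.502 in AT1 against FCA, and the count at an unadjusted p under 0.05 went from 1 to 0 in AT1 against AT01 and from 2 to 1 in TCDCA against FCA. That count also moved to 2 in AT10 against FCA without a filter or with sums by gene name, to 3 in AT10 against AT01 in 1 fit over all groups, to 0 in AT1 against AT01 at a mean of 10 FPKM or with sums by gene name, and to 1 in TCDCA against FCA with the F test. The deposited FPKM hold no read counts, and no counting error was set beside the low levels of Itga4 and Itgb8.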
